A study of Mus musculus with 10 samples.

Results

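The Krüppel-like factors described here are Klf2, Klf3, Klf4, Klf5, Klf6, Klf7, Klf9, Klf10, Klf13 and Klf15, 10 genes that were represented by 13 Ensembl transcripts among the 22534 transcripts (13184 genes) of the count data. They were taken as every counted transcript annotated to these genes, and the genes were chosen by their RNAseq, RF and TE values in the same comparison of KCl with untreated cultures. Their responses to KCl are therefore given as a description and without a test. Ribosome footprinting (RF), which sequences the stretches of mRNA that ribosomes cover, and RNAseq were run on mixed neuron-glia cultures from the cortices of newborn (P0) FVB mice after 7 days in vitro. Cultures 1, 2 and 3 were untreated. Cultures 4 and 5 received 55 mM KCl for 3 h, which depolarizes neurons. All carried no genetic change that the labels name, and all were treated with cycloheximide, a drug that stalls ribosomes, before harvest. Each of the 5 cultures gave 1 RNAseq and 1 RF library. The labels do not say whether the numbered cultures came from separate dissections, so that the spread between them may be technical.

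Krüppel-like factors bind GC-rich and CACCC-type DNA through zinc fingers at the end of the protein, while the remainder of the protein recruits either coactivators or corepressors. Several members are early response genes of growth factors, shear stress or depolarization, and others are targets of glucocorticoid or thyroid hormone. In neurons the family is known for setting the capacity of axons to grow, with Klf6 and Klf7 as promoters of growth and Klf4 and Klf9 as inhibitors, and Klf15 is known in glia for its induction by glucocorticoids.

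The family resemblance is visible in the coding sequence (CDS). The 30 bases around the linker between the first and the second of the 3 zinc fingers are shown for 7 members because they place the same stretch of each side by side. Capitals mark bases that differ from Klf6, the sequences run 5′ to 3′ along the mRNA, and the GRCm38 coordinates span an intron in every member shown except Klf15.
Klf6 (chr13:5865335-5866658, plus strand): actcacacaggagaaaagccttacagatgc
Klf3 (chr5:64827261-64828996, plus strand): actcaTacaggagaaaagccGtacaAatgc
Klf7 (chr1:64042418-64078716, minus strand): actcacacaggTgaGaagccttacaAGtgc
Klf5 (chr14:99303468-99313170, plus strand): actcaTacGggCgaGaagccCtacaAGtgc
Klf4 (chr4:55528281-55529727, minus strand): actcacacaggCgaGaaAccttacCACtgT
Klf13 (chr7:63891778-63937976, minus strand): actcacacaggTgaGaGgccttTcGCCtgc
Klf15 (chr6:90467471-90467500, plus strand): CGGcacacaggCgaGaagccCtTTGCCtgc
Klf3 differed from Klf6 at 3 of these bases, Klf7 at 4, Klf4, Klf5 and Klf13 at 7 and Klf15 at 11. Of the members not shown, Klf10 differed at 5, Klf2 at 7 and Klf9 at 13. The longest run of bases that any pair of the 10 coding sequences had in common was 26, between Klf6 and Klf7, near their ends. It reads gacaggtgtttctccaggtctgacca and starts at base 901 of the Klf6 CDS and base 850 of the Klf7 CDS. The next longest was 24, between Klf5 and Klf9. Of all runs of 30 bases in the CDS, 8.17% in Klf5, 4.37% in Klf4 and 0% in the other 8 were shared with another annotated gene. The authors retained multi-mapped reads, so reads on these stretches of Klf4 and Klf5 may include reads of the other genes. They first stripped the transcriptome of degenerate sequence, and whether that removed these stretches is not known here.

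The promoters of 8 members were listed by RefSeq (GRCm38), as 250 bases before to 50 bases after the start. Klf5 and Klf10 were not matched. The stretches below are shown because they hold, in capitals, motifs that few promoters carry. Each motif was searched on both strands. They are 30 bases on the strand of the gene.
Klf4, E-box (chr4:55532640-55532669): cgcccccgccccCACGTGcgcggagtttgt
Klf6, E-box (chr13:5861434-5861463): ctccaagctggtCACGTGgggggagaaggg
Klf15, E-box (chr6:90462336-90462365): ctcccgaggtccCACGTGgtctgcacttcg
Klf15, a further E-box (chr6:90462392-90462421): tagaacccgtctCACGTGcgcatcggagga
Klf2, MEF2 site (chr8:72318934-72318963): tataccgcggCTAAATTTAGgctgagcccg
Klf9, AP-1 site (chr19:23141125-23141154): agtaaacagagtTGAATCAccctccccact
The E-box CACGTG was in 3 of the 8 member promoters (Klf4, Klf6 and Klf15) and in 7.15% of all 32851 promoters in the table. Klf15 had 3 matches, the last of which overlaps its start. The MEF2 site, bound by the MEF2 factors that act downstream of calcium and of the kinase ERK5, was in Klf2 and in 3.19% of all promoters. The AP-1 site was searched loosely, as TGANTCA with any base at its centre. It was in Klf9, where the centre is A, and in 7.81% of all. The GC box GGGCGG, which Krüppel-like factors and SP factors themselves bind, was in 7 of the 8 and in 35.7% of all, and CACCC was in 6 and in 57.5%. The CRE half-site TGACG was in 6 and in 20.8%, and some of its matches can lie inside a longer CRE in other promoters. The full CRE TGACGTCA and the CArG box had matches in 1.79% and 1.63% of all promoters and in 0 of the 8 windows. These are matches of letters, not measured binding. The RefSeq start of Klf4 lies before the first base of its counted transcript.

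RNAseq libraries held 3056286 to 3629959 counted reads, and RF libraries 1463654 to 7719915. RF libraries of untreated culture 3 and KCl culture 4 were the shallowest. RNAseq values below sum the reads over the whole transcript and RF values those over its CDS, both as CPM, that is reads relative to the scaled library total. Levels are compared between genes only as RPKM, CPM per kilobase of transcript or CDS. Translation efficiency (TE) is the ratio of RF RPKM to RNAseq RPKM in a culture. A transcript was called measured when 2 or more cultures each had an RPKM of at least 10 in both assays, and 7262 transcripts were. Of the 13 member transcripts, 8 transcripts of 6 genes passed (Klf3, Klf5, Klf6, Klf7, Klf10 and Klf13). Klf5 passed only in the 2 KCl cultures and Klf13 only in the 3 untreated cultures. Just inside were Klf7-202, with an RPKM of 11.5 in its second-best culture, and Klf13, with 12.1. Just outside were Klf9, with 8.15, and Klf4, with 6.86. Klf2, Klf4, Klf9 and Klf15 did not pass, and their fold changes come from a fit of all transcripts with a read, which is named where it is used. Where a gene has several transcripts, the one with most RNAseq reads stands for it.

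The labels call the cells neurons, and the markers show a mixture in which glial RNA prevailed. Summed over 5 genes, astrocyte markers lay between 7818 and 8829 RNAseq CPM in untreated and between 6647 and 7078 in KCl cultures, against 352 to 504 and 433 to 438 for neuronal markers. Markers of endothelial cells, in which Klf2 and Klf4 are strongly expressed, summed to between 16.4 and 21.4 CPM in untreated and 17.6 and 20.7 in KCl cultures, and 0 of their 5 genes were measured. Cdh5 made up most of this sum, with between 34 and 56 RNAseq reads per library (14.2 ± 3.79 CPM in untreated and 15.2 ± 0.996 in KCl cultures), while Cldn5, Pecam1, Flt1 and Tek had between 0 and 13 reads each. Microglial markers summed to between 113 and 130 against 99.2 and 118, and Tyrobp is not analysed here. Oligodendrocyte lineage markers summed to between 880 and 1010 in untreated and 847 and 849 in KCl cultures, and markers of fibroblasts and mural cells to between 584 and 697 and 537 and 610. In bulk cultures, fewer cells of a type and less RNA per cell cannot be told apart. The part of cell composition in the values below was not tested.

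In untreated cultures the members spanned about an order of magnitude in RNAseq RPKM. Klf10 (18.1 ± 1.52, SD, n = 3) and Klf6 (17.2 ± 2.59) were the highest, and their ranges overlapped. Klf3 (12.5 ± 0.595), Klf13 (11.7 ± 0.625) and Klf7 (11.6 ± 1.89) followed with overlapping ranges, then Klf9 (7.92 ± 1.28). Klf15 (4.92 ± 1.27), Klf5 (4.01 ± 0.317) and Klf2 (3.8 ± 0.791) formed a lower group in which neighbours overlapped, and Klf4 was lowest at 1.98 ± 0.75. All 10 lay under the median of measured transcripts, 21.1 RPKM. The shorter Klf3-202, which does not stand for its gene here, had 33.4 ± 2.75, above this median and above Klf10 and Klf6. The order therefore holds only for the transcripts with most RNAseq reads.

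The order of ribosome footprints was not the same. In RF RPKM, Klf6 (51.5 ± 6.61), Klf10 (49.2 ± 6.27) and Klf3 (46.4 ± 9.8) overlapped at the top and lay above the median of measured transcripts, 36.5. Klf9 followed with 34.8 ± 3.68, although 5 members had more of their mRNA. Klf13 (22.5 ± 4.86) and Klf7 (17.1 ± 1.53) overlapped, and Klf4 was again lowest at 1.9 ± 0.613. In TE, Klf9 was highest at 4.48 ± 0.972 (n = 3), above 93.1% of measured transcripts, whose median TE was 1.68. Klf3 (3.73 ± 0.842), Klf6 (3.06 ± 0.741), Klf5 (2.83 ± 0.531), Klf2 (2.73 ± 0.453) and Klf10 (2.72 ± 0.169) followed with overlapping neighbours. Klf13 (1.92 ± 0.319), Klf15 (1.61 ± 0.158), Klf7 (1.48 ± 0.104) and Klf4 (1.05 ± 0.551) lay below the range of Klf10 in their means. TE depends on which isoform lengths are used, as Klf3 shows below. It also depends on where the RNAseq reads fall. Summed over the untreated cultures, CDS footprints and CDS RNAseq reads were 759 and 37 for Klf6 and 408 and 26 for Klf9. They were 826 and 480 for Klf3 and 237 and 124 for Klf5, which had 0% of its RNAseq reads in its 3′UTR. On CDS reads alone, Klf3 and Klf5 would thus stand lower beside Klf6 and Klf9.

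After KCl, 3 members were several-fold higher in mRNA and in footprints (Klf4, Klf5 and Klf6), and Klf15 was several-fold lower in both. Klf13 was lower and Klf3 higher in mRNA with little difference in CDS footprints. The other 4 lay closer to the untreated level or had few reads. The plot of values by culture shows all 10 genes.

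**Figure D1:**
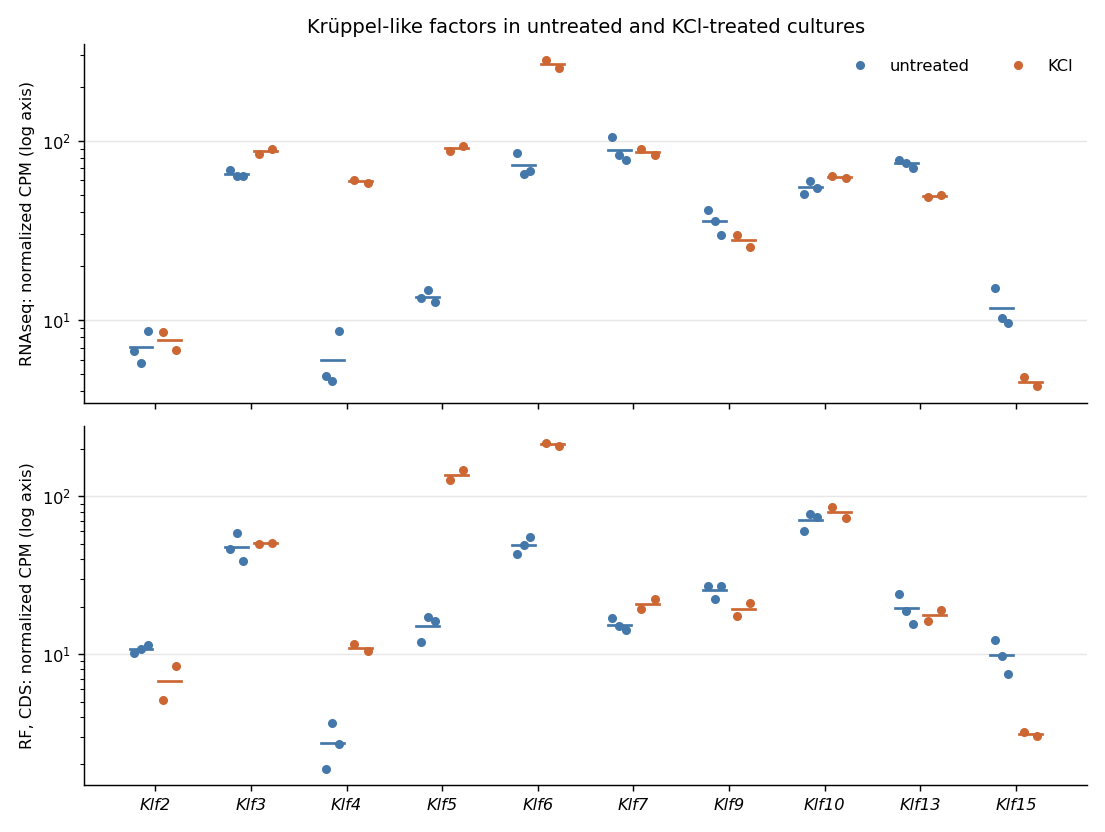
Normalized CPM (log axis) of the 10 Krüppel-like factors in RNAseq (top) and RF on the CDS (bottom). Points are single cultures, 3 untreated (blue) and 2 KCl (orange), and bars are group means. The KCl points of Klf4, Klf5 and Klf6 lie above all untreated points in both panels, and those of Klf15 lie below.

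Klf4, a factor known for its part in pluripotency and as an inhibitor of axon growth, had the largest difference in mRNA among the members. Its RNAseq reads were 16, 15 and 27 without KCl and 191 and 205 with KCl, or 4.84, 4.55 and 8.62 against 60.7 and 58.2 CPM. Mean CPM was 6 ± 2.27 (SD, n = 3) and 59.5 ± 1.76 (n = 2), a ratio of 9.9. Its CDS footprints were few, with 15, 25 and 4 reads without KCl and 18 and 31 with KCl. They corresponded to 1.88, 3.66 and 2.71 CPM against 11.6 and 10.4 CPM, a ratio of 4. The groups did not overlap in either assay. In the fit of all transcripts with a read, the log2 fold change was 3.37 (SE 0.25) in RNAseq and 2.06 (SE 0.39) in RF. TE was 0.812, 1.68 and 0.658 without KCl and 0.399 and 0.374 with KCl, and the fitted log2 difference in TE was −1.46 (SE 0.47). It was −0.90 when only RNAseq reads on the CDS were used, and between −1.67 and −0.99 when each culture was left out in turn, the last of these without untreated culture 2. Klf4 was thus the member whose footprints lagged furthest behind its mRNA when RNAseq reads of the whole transcript were used. It also had the fewest footprints behind the value. On RNAseq reads of the CDS alone, Klf2 (−1.32) and Klf15 (−1.06) had lower log2 differences in TE than Klf4. For Klf2 such reads were only 10 over the 3 untreated and 11 over the 2 KCl cultures.

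Klf5, a growth-associated activator and close relative of Klf4, showed the largest difference in footprints. Its RNAseq CPM was 13.3, 14.6 and 12.5 without KCl and 88 and 93.4 with KCl, a ratio of 6.75. Its RF CPM was 11.9, 17.3 and 16.3 against 127 and 148, a ratio of 9.08. Both KCl cultures lay far above all untreated cultures in both assays. The log2 fold change was 2.75 (SE 0.19) in RNAseq and 3.23 (SE 0.16) in RF. TE was 2.24, 2.97 and 3.28 without KCl and 3.61 and 3.98 with KCl, which did not overlap, and the fitted log2 difference was 0.47 (SE 0.28). In RPKM after KCl, Klf5 and Klf4 stood at 27.1 ± 1.14 and 19.6 ± 0.581 in RNAseq (n = 2), and at 103 ± 11.4 and 7.59 ± 0.573 in RF.

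Klf6, an early response factor that promotes axon growth, had the highest RPKM of the members after KCl, with RNAseq taken over the whole transcript. Its RNAseq CPM was 85.3, 65.5 and 67.4 without KCl and 281 and 254 with KCl, a ratio of 3.67. Its RF CPM was 43, 48.9 and 55.6 against 219 and 210, a ratio of 4.36. The log2 fold change was 1.88 (SE 0.14) in RNAseq and 2.17 (SE 0.12) in RF. TE overlapped between the groups, with 2.23, 3.3 and 3.66 against 3.45 and 3.66. In RPKM after KCl, Klf6 stood at 63.3 ± 4.48 in RNAseq and 225 ± 6.88 in RF, above the values of Klf5. The order in mRNA depends on the region counted. RNAseq reads on the CDS, summed over the KCl cultures, were 92 on 954 nt for Klf6. They were 583 on 1338 nt for Klf5 and 421 on 1032 nt for Klf3, more per base than for Klf6.

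Klf15, a glucocorticoid-induced metabolic regulator that is expressed in astrocytes, was the member with the largest difference in the other direction. Its RNAseq reads were 50, 34 and 30 without KCl and 15 and 15 with KCl, or 15.1, 10.3 and 9.58 against 4.77 and 4.26 CPM. Its CDS footprints were 98, 66 and 11 against 5 and 9, or 12.3, 9.66 and 7.46 against 3.22 and 3.02 CPM. Groups did not overlap in either assay. Untreated cultures were 2.59-fold higher in RNAseq and 3.14-fold higher in RF. In the fit of all transcripts with a read, the log2 fold change was −1.30 (SE 0.39) in RNAseq and −1.67 (SE 0.40) in RF. On RNAseq reads of the CDS alone, which were 37 over the 3 untreated and 16 over the 2 KCl cultures, the RNAseq value was smaller, at −0.55. With KCl culture 4 or 5 left out, it was −1.37 or −1.23, and the RF value without KCl culture 5 was −1.62. Those fits rest on a single KCl culture. TE was 1.55, 1.78 and 1.48 against 1.29 and 1.35. The summed markers of astrocytes were also lower in RNAseq of KCl cultures, by less than Klf15, and higher in RF (11625 to 12072 CPM in untreated and 12651 to 12908 in KCl cultures). Gfap made up most of the RNAseq sum, with 4915 ± 711 CPM in untreated and 4022 ± 296 in KCl cultures. Of the 5 markers, 2 were called lower in RNAseq, while Aldoc had 899 ± 62.3 against 1006 ± 87.3 CPM and was not called.

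Klf13, a factor of the Klf9 subgroup that binds the SIN3A corepressor, had RNAseq CPM of 78.1, 75.5 and 70.2 without KCl and 48.3 and 49.7 with KCl. Its RF CPM overlapped, with 24, 18.9 and 15.6 against 16.1 and 19.1. The log2 fold change was −0.61 (SE 0.17) in RNAseq and −0.19 (SE 0.23) in RF. TE was 2.26, 1.84 and 1.64 against 2.46 and 2.84, so that the KCl cultures were higher, with a fitted log2 difference of 0.45 (SE 0.30). RNAseq reads on the CDS alone gave −1.04 for mRNA and 0.89 for TE. Footprints counted on all regions in place of the CDS gave −0.44 for RF and 0.19 for TE.

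Klf3, a repressor that acts through CTBP corepressors, had RNAseq CPM of 68.7, 63.4 and 63.2 without KCl and 84.5 and 90 with KCl, and RF CPM of 46.2, 58.7 and 38.7 against 50.2 and 51. The mRNA values did not overlap and the footprint values did. The log2 fold change was 0.42 (SE 0.16) in RNAseq and 0.03 (SE 0.16) in RF. Its TE was lower after KCl, 3.4, 4.68 and 3.09 against 3 and 2.87, with a fitted log2 difference of −0.35 (SE 0.24). With culture 2, 3, 4 or 5 left out, the RNAseq log2 fold change of this transcript was 0.41, 0.41, 0.47 or 0.38. That of Klf3-202 was 0.44 without culture 3 and 0.44 without culture 5.

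The isoforms show how shared reads enter these numbers. Klf3-201 and Klf3-202 have a CDS of 1032 nt each and had the same CDS reads in every library, and they differ in length, 5221 and 1562 nt. For that reason Klf3-202 had a TE of 1.38 ± 0.214 in untreated cultures where Klf3-201 had 3.73 ± 0.842. The RNAseq log2 fold change was 0.51 (SE 0.17) for Klf3-202, and 0.41 for both on CDS reads. Klf7-201 and Klf7-202, 1477 and 7662 nt, had RNAseq log2 fold changes of 0.10 (SE 0.24) and −0.03 (SE 0.16) and RF values of 0.44 (SE 0.22) and 0.42 (SE 0.22). Klf15-201 and Klf15-202 had the same CDS reads in every library. A sum over isoforms therefore counts the same reads more than once.

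Klf7, a promoter of axon growth that has the longest run of coding bases in common with Klf6, lay near its untreated level in mRNA. Its RNAseq CPM was 105, 82.8 and 78.2 without KCl and 90.3 and 83.5 with KCl, and its RF CPM was 16.9, 15.1 and 14.2 against 19.3 and 22.2. The footprint values did not overlap, with a log2 fold change of 0.42 (SE 0.22), whereas the mRNA values did. TE was 1.36, 1.54 and 1.55 against 1.81 and 2.25, with a fitted log2 difference of 0.49 (SE 0.29). This difference was 0.02 when RNAseq reads on the CDS were used in place of all reads, so that it rests on reads outside the CDS. The difference between the KCl responses of Klf6 and Klf7 was not tested.

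Klf9 and Klf10 were close to the untreated level. Klf9, a target of glucocorticoid and thyroid hormone, had RNAseq CPM of 41.2, 35.8 and 29.7 without KCl and 29.9 and 25.6 with KCl. Its RF CPM was 27, 22.4 and 27.1 against 17.4 and 21.2. Without the filter, the log2 fold change was −0.30 (SE 0.22) in RNAseq and −0.28 (SE 0.22) in RF, with RNAseq overlapping and RF not. Klf10, an early gene of TGF-beta signalling, had RNAseq CPM of 50.5, 59.8 and 54.6 against 63.6 and 62.2. Its RF CPM was 60.5, 77.6 and 73.9 against 86.2 and 73.2, and the log2 fold change was 0.19 (SE 0.17) and 0.17 (SE 0.14). Klf2, an endothelial factor induced by shear stress, had 22, 19 and 27 RNAseq reads in untreated and 27 and 24 in KCl cultures. Its CDS footprints were 81, 73 and 17 against 8 and 25, or 10.2, 10.7 and 11.5 against 5.15 and 8.4 CPM, a log2 fold change of −0.48 (SE 0.32) without the filter. It was −0.96 without KCl culture 5.

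Counted by calls at an adjusted p under 0.05 in edgeR, 5 of the 8 measured member transcripts were called in RNAseq, 4 higher and 1 lower, beside 33.2% of all 7262 measured transcripts (17.5% higher and 15.7% lower). In RF, 2 of the 8 were called, both higher, beside 40.9% of all (20.9% higher and 20% lower). In TE, 0 of the 8 were called, beside 5.82% (1.58% higher and 4.24% lower). At an unadjusted p under 0.05, 0 of the 8 had a TE difference in edgeR, beside 16.9%, and 0 were called by DESeq2, beside 2.8%. Groups did not overlap in RNAseq for 5 higher and 1 lower of the 8, beside 27% and 27.9% of all. In RF this held for 4 higher and 0 lower, beside 30.3% and 30.9%, and in TE for 4 higher and 2 lower, beside 16.4% and 17.6%. In the fit of all transcripts with a read, 8 of the 13 member transcripts were called in RNAseq, 5 higher and 3 lower, beside 19% (10.4% and 8.62%). In RF, 5 were called there, 3 higher and 2 lower, beside 25.8% (13.7% and 12.2%), and in TE 0, beside 1.7% (0.469% and 1.23%). At an unadjusted p, 1 of the 13 (Klf4) had a TE difference, beside 10.6%. Without the filter, groups did not overlap for 6 higher and 3 lower in RNAseq, beside 18.5% and 24.7%, for 5 and 4 in RF, beside 19.2% and 28.4%, and for 4 and 6 in TE, beside 13.3% and 15.7%. Transcripts of 1 gene share reads and are counted apart here. By gene, and beside the same shares of measured transcripts, 4 of 6 were called in RNAseq (3 higher and 1 lower). In RF 2 of the 6 genes were called, and in TE 0. The members were chosen on this comparison, so nothing is read from these counts. The median log2 fold change over all measured transcripts was −0.01 in RNAseq, −0.01 in RF and 0.02 in TE.

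**Figure D2:**
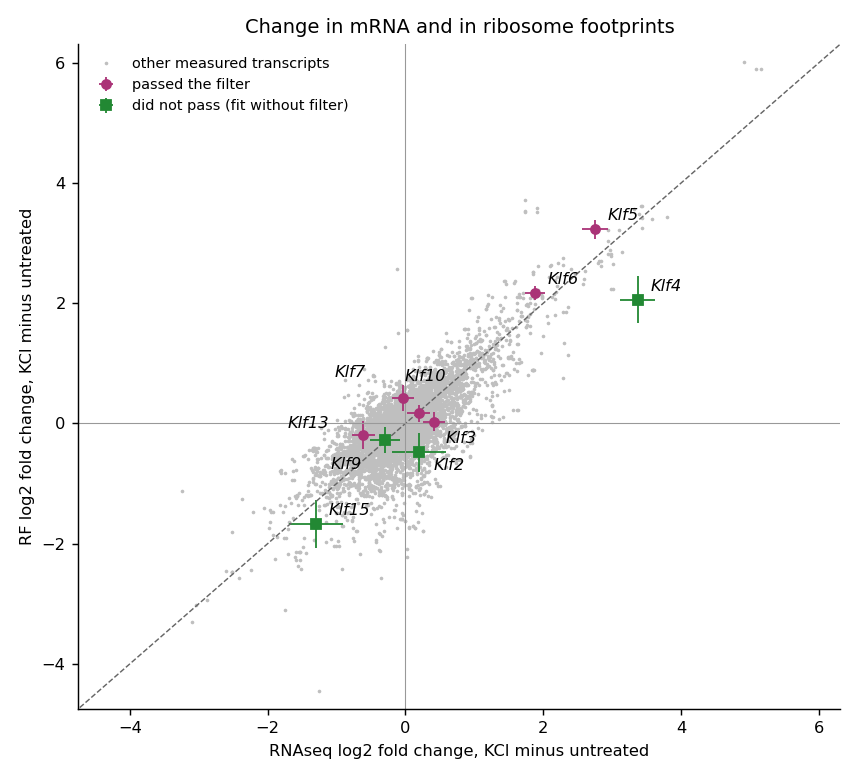
Log2 fold change, KCl minus untreated, in RNAseq (x axis) and RF (y axis). Coloured points are the 10 Krüppel-like factors with SE bars, circles where the transcript passed the filter and squares where it did not and the fit of all transcripts with a read was used. Grey points are the other measured transcripts and the dashed line marks equal change. Klf4 lies below the line at 3.37 in RNAseq and 2.06 in RF, while Klf5 and Klf6 lie slightly above it.

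The values of a transcript depend on where its reads fall, and the members differed in this. RNAseq reads of Klf6 in untreated cultures were 94.8% in the 3′UTR and 5.22% in the CDS, 37 of 709 reads. Those of Klf5 were 94.7% in the CDS and 0% in a 3′UTR of 1710 nt, in the untreated cultures as after KCl. Klf3-201 was also mostly CDS (75.7%), whereas Klf10 (81.1%), Klf9 (83%), Klf7-202 (75.6%) and Klf13 (70.6%) were mostly 3′UTR. Thus RNAseq RPKM over the whole length was read from the 3′UTR for Klf6 and from the CDS for Klf5. Nonetheless, CDS reads alone gave log2 fold changes of 1.89 for Klf6 and 2.82 for Klf5, beside 1.88 and 2.75. The Klf4 value was 2.91 on CDS reads. Its reads after KCl comprised 170 of 396 in the 3′UTR, beside 16 of 58 in untreated cultures.

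**Figure D3:**
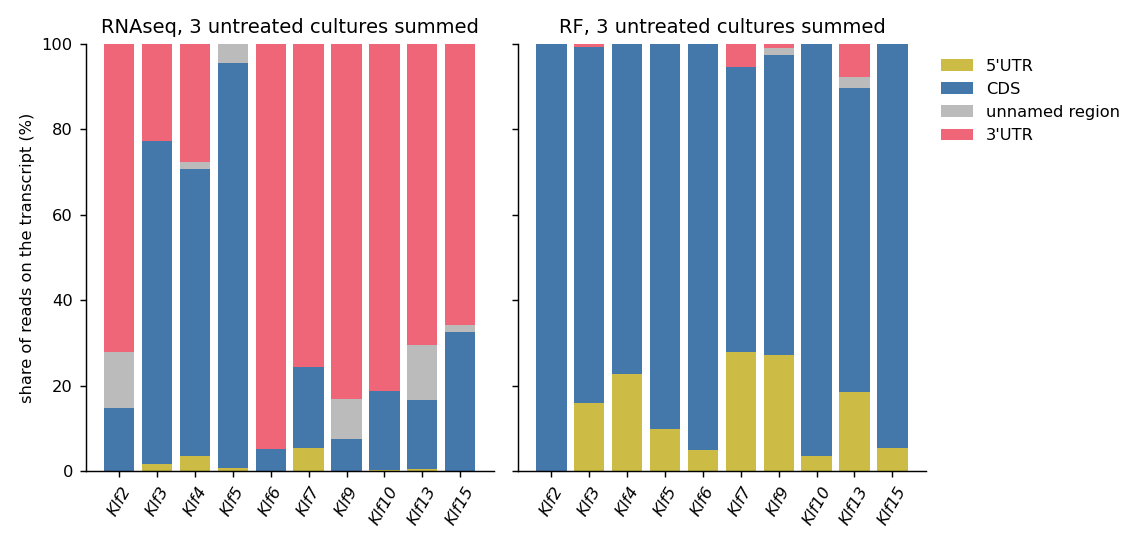
Share of the reads of each Krüppel-like factor (%) that fell in the 5′UTR, the CDS, a region without a stated name and the 3′UTR, in RNAseq (left) and RF (right), summed over the 3 untreated cultures. RNAseq of Klf6 is almost wholly 3′UTR and that of Klf5 almost wholly CDS, while RF is mostly CDS in every member.

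The count data hold a further region that the sources used here do not name. Klf13 had 92 of 727 untreated RNAseq reads in it (12.7%) and 14 of 327 after KCl (4.28%). Klf4 had 1 of 58 and 30 of 396, or 1.72% and 7.58%. In RF it held at most 12 reads of a member in either group. These are sums over cultures and were not tested.

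Footprints in the 5′UTR were seen on most members. As footprints per base, relative to those per base of CDS in the same untreated cultures, the 5′UTR of Klf7-202 stood at 77.6% (109 footprints on 490 nt), that of Klf13 at 61% (89 on 369 nt) and that of Klf9 at 53.9% (159 on 529 nt). The median of 6460 measured transcripts with a 5′UTR of at least 50 nt was 34.1%, with quartiles of 10.6% and 67.7%. Klf6 was at 32% (40 on 157 nt), Klf3-201 at 44.8% (159 on 443 nt), Klf10 at 45.8% (40 on 112 nt) and Klf5 at 48.3% (26 on 304 nt). Klf4 had 13 untreated 5′UTR footprints and Klf15-201 had 10, too few to place, and the 5′UTR of Klf2 is 45 nt. Only Klf7-202 of these 7 exceeded the upper quartile. In untreated cultures its values were 73.7%, 78.7% and 96.5%.

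The annotated 5′UTRs were searched for upstream AUG triplets. Klf3-202, Klf7-201, Klf7-202 and Klf13 had 3 each, Klf9 had 2, and Klf4 and Klf3-201 had 1, whereas Klf2, Klf5, Klf6, Klf10 and both Klf15 transcripts had 0. Of measured transcripts, 55.4% had at least 1, with a median of 1. Footprints on Klf5, Klf6 and Klf10 5′UTRs thus occurred without an AUG in the annotated sequence. The paper reports a peak of footprints at the start codon. Whether footprints of ribosomes at the main start codon are among these counts is not known here, and initiation within the 5′UTR was not tested. After KCl the Klf5 5′UTR had 38 and 82 footprints beside 11, 6 and 9 in the untreated cultures, while its density relative to the CDS, 84.9% and 81.7%, compared with 51%, 22.4% and 165% in the untreated cultures. The 165% is from culture 3, with 9 footprints on the 5′UTR and 24 on the CDS, and both KCl cultures lay above the other 2 untreated cultures and above the value of all 3 untreated cultures summed, 48.3%. Footprints were higher with KCl on the 5′UTR as well as on the CDS.

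**Figure D4:**
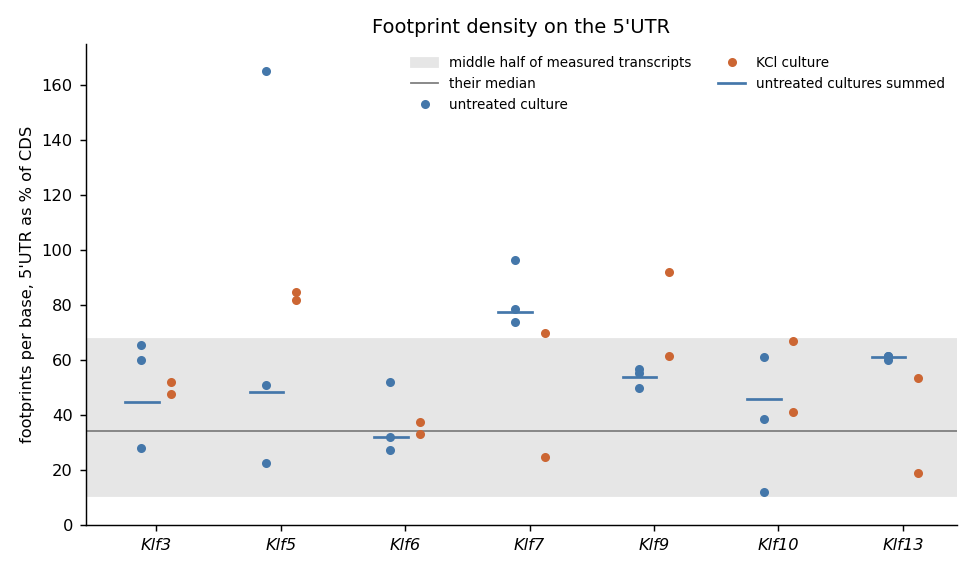
Footprints per base of 5′UTR as a percentage of those per base of CDS, for the 7 members with at least 20 untreated 5′UTR footprints. Points are single cultures, untreated (blue) and KCl (orange), blue lines the untreated cultures summed, the grey band the middle quartiles of measured transcripts and the grey line their median of 34.1%. Klf7 lies above the band at 77.6% and Klf6 near the median at 32%.

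Other genes of the same system were taken from lists drawn up with earlier results of these data known. Their counts of genes that rose or fell are to be read beside the share of all measured transcripts that did, 17.5% and 15.7% in RNAseq, 20.9% and 20% in RF and 1.58% and 4.24% in TE. Hdac3, Fkbp5 and Tsc22d3 are named because of their values, and the others by their read counts or their role in regulating a member. Of 7 further KLF genes, 5 were counted and 0 were measured. Among them, without the filter, Klf11, a close relative of Klf10, had RNAseq CPM of 12.4 ± 4.08 in untreated and 16.6 ± 1.32 in KCl cultures and rose in RF from 8.66 ± 1.07 to 14.8 ± 0.911 (log2 fold change 0.89, SE 0.28, edgeR adjusted p = 0.0081). Klf16 also rose in RF (0.70, SE 0.28, edgeR adjusted p = 0.045). Klf1 and Klf14 had between 0 and 3 reads in any library, and Klf8 was low.

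SP factors, the sister family that binds the same GC boxes, were measured in 4 of 9 cases. Sp8 rose in RNAseq (0.48, SE 0.17, edgeR adjusted p = 0.028) and in RF (1.14, SE 0.16, adjusted p = 1.5e-06), and Sp9 rose in RF (1.06, SE 0.19, adjusted p = 7.8e-05). Both are known in interneuron progenitors of the forebrain. Sp2 and Sp3 did not pass in either assay. The median of the 4 was 0.28 in RNAseq and 0.63 in RF.

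Of the upstream kinases and factors, 4 of the 5 measured rose in mRNA, beside 17.5% of all measured transcripts, and their median was 0.86 in RNAseq and 0.76 in RF. Among them, Mef2a (0.49, SE 0.17), Mef2c (0.86, SE 0.29), Mef2d (0.95, SE 0.14) and Srf (2.29, SE 0.15) rose in RNAseq, at edgeR adjusted p-values between 7.6e-07 and 0.037 for the MEF2 genes and 4.1e-16 for Srf, and all 4 rose in RF. MEF2 proteins and SRF are calcium-responsive factors that act on early response genes. The footprints of Srf rose by less (0.76, SE 0.24) and its TE fell by 1.59 on the log2 scale (SE 0.28, adjusted p = 4.1e-06). Thra encodes a receptor of thyroid hormone, which acts on Klf9. Its RNAseq value of 0.20 (SE 0.13) did not pass. Its footprints fell by 1.10 (SE 0.15, edgeR adjusted p = 8.7e-07) and its TE by 1.29 (SE 0.21, adjusted p = 9.2e-08). Thrb, which encodes a further such receptor, was not measured. Without the filter its RF value was 0.91 (SE 0.46) and its TE value 1.02 (SE 0.58), and neither passed. The kinases Map2k5 and Mapk7, which act upstream of Klf2 and Klf4 in endothelium, were not measured and without the filter had RNAseq values of −0.06 (SE 0.26) and −0.02 (SE 0.22).

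Genes induced by glucocorticoids, as Klf9 and Klf15 are, did not move one way. Of the 3 measured, Per1 rose (1.03, SE 0.18, edgeR adjusted p = 1.4e-05) and Sgk1 rose (0.61, SE 0.18, adjusted p = 0.0059), and Ddit4 fell by 1.09 in RNAseq (SE 0.20, adjusted p = 3.5e-05). Per1 and Sgk1 are also known as genes induced by depolarization. Fkbp5, the chaperone that limits the glucocorticoid receptor, did not pass the filter. Its RNAseq CPM was 28.7 ± 0.197 in untreated and 10.6 ± 3.39 in KCl cultures, and without the filter it fell by 1.37 in RNAseq (SE 0.27, adjusted p = 9.6e-06) and by 1.27 in RF (SE 0.24, adjusted p = 1.4e-06), beside −1.30 and −1.67 for Klf15. Tsc22d3, in the same list, had RNAseq CPM of 24.6 ± 4.07 and 32.5 ± 1.02.

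Corepressors and coactivators that Krüppel-like factors recruit were measured in 8 of 12 cases. Of the 8, 1 rose and 1 fell in RNAseq, with a median of 0.01, and 3 rose and 2 fell in RF, with a median of 0.14, beside 17.5% and 15.7% of all measured transcripts in RNAseq and 20.9% and 20% in RF. The acetyltransferase Ep300 rose in RNAseq (0.83, SE 0.14, edgeR adjusted p = 8.1e-06) and in RF (0.74, SE 0.11, adjusted p = 6.6e-06). Ctbp1, the partner of Klf3, fell by 0.44 in RNAseq (SE 0.15, adjusted p = 0.017) and by 0.82 in RF (SE 0.16, adjusted p = 0.00019). Hdac3 fell in RF by 0.82 (SE 0.15, adjusted p = 8.1e-05) and in TE by 0.84 (SE 0.25, adjusted p = 0.02) while its RNAseq value was 0.03 (SE 0.16). Sin3b, a scaffold of the SIN3 corepressor complex, rose in RF (0.30, SE 0.12, edgeR adjusted p = 0.039). The corepressor gene Ncor1 passed in neither assay, with −0.01 (SE 0.16) in RNAseq and −0.20 (SE 0.13) in RF.

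Of 5 ubiquitin ligases that turn over KLF proteins, Smurf1 and Btrc were measured, and both fell in RF. Smurf1 fell by 0.64 in RF (SE 0.22, edgeR adjusted p = 0.021) and by 0.87 in TE (SE 0.28, adjusted p = 0.04), and Btrc fell by 0.43 in RF (SE 0.16, adjusted p = 0.036), with RNAseq values of 0.23 (SE 0.16) and 0.13 (SE 0.20). Outside the filter, Wwp1 had RF reads of 53, 65 and 15 without KCl and 4 and 4 with KCl and fell by 2.14 in RF (SE 0.48, adjusted p = 0.00011). Fbxw7, also outside the filter, rose by 0.56 in RNAseq (SE 0.20, adjusted p = 0.028). Its RF value of −0.51 (SE 0.21) did not pass, and its TE fell by 1.08 (SE 0.31, adjusted p = 0.032). Fbxo32, better known for muscle protein breakdown, rose in RNAseq (1.88, SE 0.24, adjusted p = 9.6e-13) and in RF (1.90, SE 0.18, adjusted p = 7.4e-23).

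Reported targets of Krüppel-like factors were measured in 3 of 6 cases. The cell cycle inhibitor Cdkn1a, a target of Klf4 and Klf6, rose in RNAseq (0.91, SE 0.13, edgeR adjusted p = 6.2e-07) and in RF (1.25, SE 0.14, adjusted p = 1.3e-07). Cyclin D1, encoded by Ccnd1, fell by 0.60 in RNAseq (SE 0.16, adjusted p = 0.003) and by 0.52 in RF (SE 0.14, adjusted p = 0.0034). The growth cone gene Gap43 had a RNAseq value of 0.41 (SE 0.18) and an RF value of 0.45 (SE 0.28) and did not pass. These targets also respond to many other factors.

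**Figure D5:**
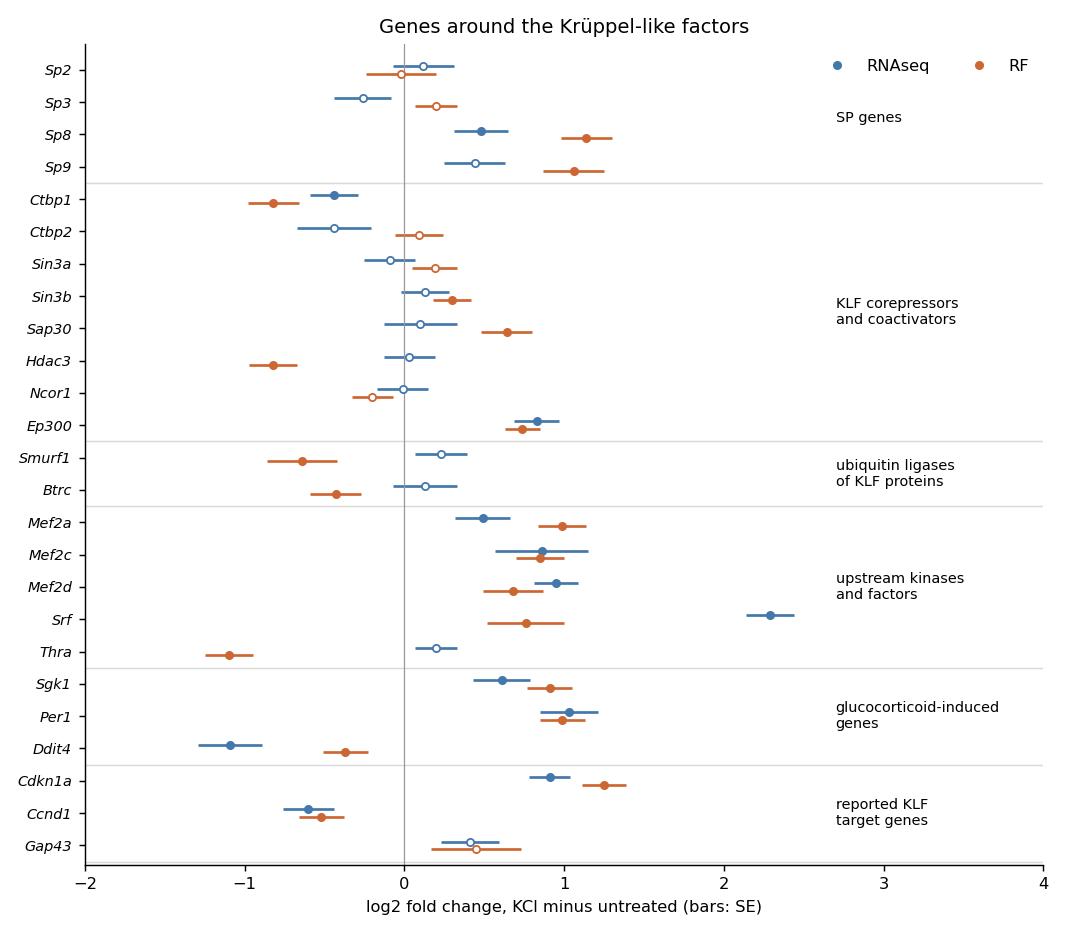
Log2 fold change, KCl minus untreated, of the measured genes of each list around the Krüppel-like factors, in RNAseq (blue) and RF (orange). Bars are SE, and filled points have an edgeR adjusted p under 0.05. Srf stands out in RNAseq at 2.29 beside 0.76 in RF, and Thra in RF at −1.10.

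The patterns closest to a member were sought over all 10 libraries, as Pearson's r of log2 CPM with each assay centred on its mean. Klf5, the measured member with the highest RNAseq fold change, was most like Arid5b, a chromatin cofactor (r = 0.997), Rbbp6, an RNA processing protein (r = 0.996), and Tob2, an antiproliferative factor that recruits deadenylases (r = 0.995). In all, 221 of 4368 genes reached an r of 0.95 with Klf5, so that this pattern was common. Klf13, the lowest, was most like Gm17455 (r = 0.959), the Mediator subunit gene Med11 (r = 0.953) and the small heat shock protein gene Hspb6 (r = 0.938), and 2 genes reached 0.95. The libraries share cultures and treatment groups, and these values are given without a test.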

How the data were processed

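RNAseq and RF libraries of 3 untreated and 2 KCl cultures were used, grouped by their labels. Per the submitters' processing notes and the methods, Trimmomatic 0.32 served for trimming, STAR 2.3.1z8 for removal of rRNA and Bowtie2 2.2.2 for alignment to an mm10 transcriptome (Ensembl release 75) stripped of degenerate sequence, with multi-mapped reads retained. The authors deposited raw counts per transcript region, made with bedtools 2.20.1. They left out a further KCl replicate for its low library size. Region letters were assigned from read shares and annotated lengths, and 1 region remained unnamed. Of the transcripts, 22172 (98.4%) matched the GENCODE annotation of GRCm38. Whether RNAseq kept strand is not given in the sources used here, so reads of overlapping antisense genes cannot be told apart.

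From the deposited counts, edgeR 4.0.16 (R 4.3.3) compared the groups by its quasi-likelihood test. Libraries were scaled by TMM separately for RNAseq and RF, and p-values were adjusted by Benjamini-Hochberg over all transcripts fitted. For TE the model held assay, treatment and their interaction, blocked by culture, since both libraries came from the same lysate. SE is the absolute log2 fold change over the square root of F, an approximation. The fits were tested on simulated data. Zinc fingers were located by their spacing of cysteines and histidines in the translated CDS. DESeq2 1.42.0 and other settings were alternatives. Python 3.11.15, numpy 2.4.6, pandas 2.3.3 and matplotlib 3.10.9 were used. The members and gene lists were chosen with earlier results of these data known. All 10 members are named, and of each list up to 3 genes with the most RNAseq reads or those with a role in regulating a member. Exceptions are stated, and 1 listed gene is not reported here.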

Additional observations from a re-analysis of the deposited data

How the results depend on the processing

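The number of member transcripts called in RNAseq was 5 with edgeR and lay between 3 and 5 when each culture was left out in turn. The call of Klf3-202 was lost without untreated culture 3 or KCl culture 5, and that of Klf3-201 without culture 2, 3, 4 or 5 and with library totals in place of TMM. It was 3 with RNAseq reads on the CDS only, where fewer reads are counted, and 8 without a filter and 8 with filterByExpr, where more member transcripts enter. In RF the count was 2, and 5 without a filter and 5 with filterByExpr. It was 2 in every fit that left out 1 culture. Where KCl culture 4 or 5 was left out, the lone KCl sample was assumed to vary like the untreated ones. The members were chosen on this comparison, so nothing is read from these calls or from their loss. In TE the count was 0 under all 14 alternatives, among them 0 with no replicate block, that is without pairing the RNAseq and RF libraries of a culture. Of the refitted log2 fold changes of single transcripts, 126 of 139 in RNAseq, 130 of 134 in RF and 136 of 147 in TE moved by less than 1 SD between cultures. Among transcripts that had been called, 0 changed sign, and in TE no member had been called. Without regard to calls, 6 refits in RNAseq, 6 in RF and 5 in TE had the other sign. Fits without a filter that leave out a culture or use CDS reads only were added after the data were seen. The depth of untreated culture 3 and KCl culture 4 in RF limits Klf2, Klf4 and Klf15, which had between 4 and 17 CDS footprints in the former and between 5 and 18 in the latter.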
